A study of Mus musculus with 5 samples.

Results

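The genes described here encode the constant regions of mouse immunoglobulin, joined by Jchain and Mzb1, whose products help cells to assemble and export antibody. They are 10 of the 26189 gene columns counted in the aortic sample: the heavy-chain genes Ighm, Ighd, Ighg2b, Ighg2c, Ighg3 and Igha, the light-chain genes Igkc and Iglc2, and Jchain and Mzb1. They were picked by name with earlier results of these data known, and all 10 had molecules in the kept cells. The related columns Ighg1, Ighe, Iglc1 and Iglc3 are given beside them. Ighg2a and Iglc4 were not analysed here.

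The sample is a suspension of live CD45+ cells (CD45 is a surface protein of blood-derived cells) sorted from enzymatically digested aortic arches of female mice aged 12 weeks at the start. Every animal had received 1 intraperitoneal injection of an AAV8 vector to induce atherosclerosis, followed by a Western diet for 18 weeks, and no animals without this treatment were part of the sample. Wild-type cells came from C57BL/6J mice, and Saa3-/- cells from mice with the allele Saa3tm1.1(KOMP)Vlcg, which the labels place on C57BL/6N while the design text speaks of littermates. Each genotype is 1 pool with its own sample tag, and how many mice a pool holds is not stated in the sources used here. The other 4 samples of the series, cultured bone-marrow-derived macrophages, were not analysed here.

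A B cell makes its receptor by joining variable segments to a constant gene. Naive B cells splice the same heavy-chain transcript to Ighm or to Ighd and so carry IgM and IgD together, and class switching later replaces these with an IgG, IgA or IgE gene. A plasma cell, the end stage of the lineage, stops making most B cell surface proteins and fills with messenger RNA for a single heavy and a single light chain. Jchain links IgM or IgA subunits into polymers, and Mzb1 is a chaperone of the endoplasmic reticulum in B and plasma cells. IgM of plasma cells and of innate-like B cells is known in mouse arteries and their surrounding fat, and part of it binds oxidised lipoprotein.

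The heavy-chain genes lie in 1 cluster on chromosome 12 (GRCm38, GENCODE M21, minus strand). Ighm is at chr12:113418558-113422730 and Ighd follows at chr12:113406604-113416324. Ighg3 is at chr12:113356224-113361232, Ighg2b at chr12:113302965-113307933, Ighg2c at chr12:113285325-113288932 and Igha at chr12:113254830-113260236. Igkc is at chr6:70726435-70726966 on the plus strand, inside the lincRNA gene Gm30211 of the same strand. Iglc2 is at chr16:19198396-19200351 and Jchain at chr5:88519809-88527891, both on the minus strand. Mzb1 overlaps the gene model SPATA24 on the same strand, and 53.5% of its 50-base stretches also occur in SPATA24 transcripts. Its counts are therefore uncertain, by an amount that this share of annotated sequence does not give.

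Near-identical constant genes can trade reads, which matters for the lambda and the IgG columns. The lambda stretches below are 150 aligned bases from the 5′ end of the coding sequence in GENCODE M21, written 5′ to 3′, shown because Iglc2 and Iglc3 differ at only 7 of them and Iglc1 differs from Iglc2 at 34. Capitals mark bases that differ from Iglc2.
Iglc2: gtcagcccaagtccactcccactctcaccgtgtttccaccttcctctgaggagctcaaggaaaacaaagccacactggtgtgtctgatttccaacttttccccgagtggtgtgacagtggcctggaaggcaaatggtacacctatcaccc
Iglc3: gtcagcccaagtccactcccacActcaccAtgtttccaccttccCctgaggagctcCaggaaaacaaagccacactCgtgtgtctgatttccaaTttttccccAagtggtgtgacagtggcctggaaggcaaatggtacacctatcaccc
Iglc1: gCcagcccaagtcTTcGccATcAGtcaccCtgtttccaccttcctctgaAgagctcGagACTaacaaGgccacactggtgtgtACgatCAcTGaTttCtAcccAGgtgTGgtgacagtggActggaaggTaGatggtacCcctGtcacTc
The corresponding 150 bases of the IgG genes are shown because Ighg2b and Ighg2c, the IgG genes found most often here, differ at 15 positions. Ighg3 differs from Ighg2c at 30 positions and Ighg1 at 22, and capitals mark bases that differ from Ighg2c.
Ighg2c: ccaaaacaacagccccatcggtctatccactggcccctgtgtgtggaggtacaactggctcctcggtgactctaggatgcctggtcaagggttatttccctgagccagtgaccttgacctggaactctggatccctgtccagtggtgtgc
Ighg2b: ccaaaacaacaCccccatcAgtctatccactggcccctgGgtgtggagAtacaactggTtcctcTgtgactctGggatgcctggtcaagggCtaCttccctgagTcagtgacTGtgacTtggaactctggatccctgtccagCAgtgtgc
Ighg3: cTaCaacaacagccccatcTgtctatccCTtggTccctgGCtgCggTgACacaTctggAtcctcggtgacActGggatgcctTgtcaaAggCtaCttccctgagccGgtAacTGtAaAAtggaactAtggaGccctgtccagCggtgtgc
Ighg1: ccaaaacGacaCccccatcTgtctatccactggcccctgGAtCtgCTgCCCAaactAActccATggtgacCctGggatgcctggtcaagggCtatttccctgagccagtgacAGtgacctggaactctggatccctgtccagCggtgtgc
Over whole annotated transcripts, 7.65% of the 50-base stretches of Iglc2, 4.15% of those of Ighg2b, 5.49% of those of Ighg2c and 1.58% of those of Ighg3 also occur in another gene. For Ighm, Ighd, Igkc, Igha and Jchain this share was 0%. These shares and the printed stretches describe annotated sequence, and which parts the reads covered was not examined. How reads that match several genes were assigned is not stated in the file headers.

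The deposited tables hold 1743 cells, of which 1656 had at most 25% of their molecules from mt- genes and were kept: 833 in the pool labelled wild-type and 823 in the pool labelled Saa3-/-. The kept cells held a median of 6415 and 4698 molecules, and no cell barcode occurred in both tables. Saa3 itself did not follow the labels: the pool labelled Saa3-/- held 1268 Saa3 molecules (242.4 counts per 1000000 molecules, CPM) and the pool labelled wild-type 1079 (148.0 CPM). The pools are therefore called by their labels throughout. Cells were clustered without any immunoglobulin gene, Jchain, Mzb1 or Saa3, so these genes had no part in choosing the B cells. In spite of the CD45 sort, 171 cells fell into a smooth-muscle-like cluster, 152 into fibroblast-like clusters and 10 into an endothelial-like cluster. With 1 pool per genotype label there is no replicate, so no test was made, and all intervals below are 95% counting intervals (exact Poisson for sums, exact Clopper-Pearson for shares) that leave out variation between animals.

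5 cells, all in the pool labelled wild-type, held most of the immunoglobulin RNA of the sample. They were chosen by having at least 1000 molecules of the 8 constant genes in sum, so their levels of these genes are a description. Their sums were 6666, 6307, 5822, 5434 and 4810 molecules, and the next cell, a macrophage-like cell of the same pool, held 195. Immunoglobulin constant genes made up between 16.7% and 35.3% of all molecules in these 5 cells, against 0.429% in that next cell. Among the cells with the next highest sums, a B-cell-like cell had the largest share, 1.79%. They held 65.3% of the 14193 Ighm molecules, 62.0% of the 31707 Igkc molecules and 83.5% of the 936 Jchain molecules. In contrast they held 2 of 732 Ighd molecules and 4 of 658 Ighg2b molecules. None of the 823 cells of the pool labelled Saa3-/- reached the limit, which allows a share of up to 0.365% if 3 counts are taken as the limit of a count of 0, and up to 0.447% by the exact interval. The 5 of 833 are 0.600% (0.195 to 1.40%), and the exact intervals of both shares overlap.

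**Figure D1:**
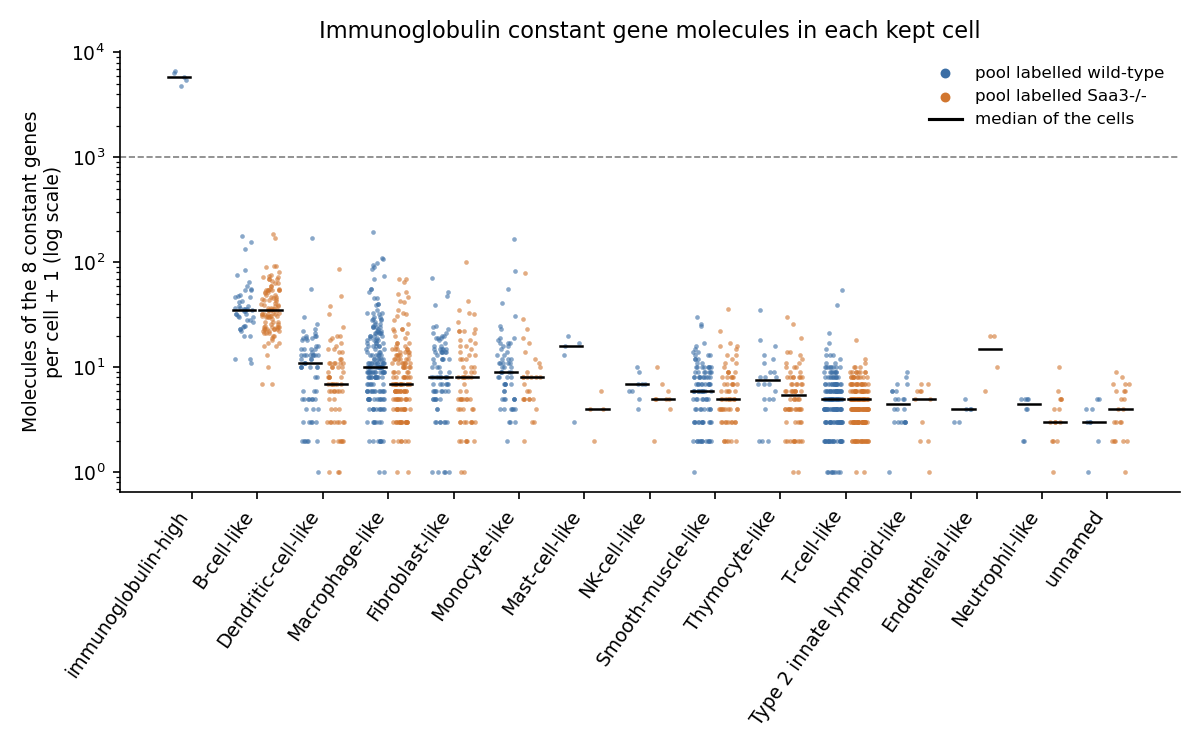
Molecules of the 8 constant genes in each kept cell, plus 1, on a log axis, by cell type and pool. Each point is a cell, black bars are medians and the dashed line is the limit of 1000 molecules. The 5 immunoglobulin-high cells stand at 4810 molecules or more, and every other cell is at 195 or fewer.

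The 5 cells used IgM with kappa light chain. Ighm counts, from the cell with the highest sum to the lowest, were 2101, 2284, 1920, 1375 and 1592 molecules. Igkc counts in the same order were 4538, 4010, 3889, 4040 and 3185 molecules. Ighm made up 99.6% of their 9306 heavy-chain molecules (99.5 to 99.7%), and lambda genes 0.652% of their 19791 light-chain molecules. Igha, Ighg1 and Ighe were at 0 in all 5. Ighg3 was found in the fifth cell alone, with 22 molecules beside its 1592 of Ighm. The cells differed more in the assembly genes: Jchain counts were 153, 239, 126, 38 and 226 molecules, and Mzb1 counts were 71, 25, 9, 14 and 39. The fourth cell had the fewest Jchain molecules for its Ighm (0.0276 per Ighm molecule, against 0.0656 to 0.142 in the others).

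The 5 cells had 4 different leading heavy variable segments, while 4 of the 5 had the same leading kappa segment. Igkv3-2 (chr6:70698449-70699067, plus strand) led the kappa variable genes in 4 of the 5 cells, with 145, 147, 156 and 229 molecules in the first to the fourth cell. These are 94.8%, 87.5%, 96.9% and 99.6% of the kappa variable molecules of each cell. Outside the 5 cells only 26 Igkv3-2 molecules were found, spread over 24 cells with at most 3 in any of them. The first 300 bases of its coding sequence are printed because 4 cells share it, and capitals mark bases outside every 50-base stretch that another annotated gene also holds.
Igkv3-2: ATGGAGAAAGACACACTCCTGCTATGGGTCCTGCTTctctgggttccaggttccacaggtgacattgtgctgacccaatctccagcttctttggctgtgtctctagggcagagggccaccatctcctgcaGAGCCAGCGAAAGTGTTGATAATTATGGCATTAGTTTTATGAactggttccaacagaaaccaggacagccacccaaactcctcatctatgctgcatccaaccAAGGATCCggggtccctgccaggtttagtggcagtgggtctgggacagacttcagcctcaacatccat
In the fifth cell only 9 kappa variable molecules were counted, with Igkv2-137 and Igkv4-73 level at 4, beside its 3185 Igkc molecules. Of the 50-base stretches of Igkv3-2, 21.3% also occur in another gene, most of them in Igkv3-5.

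The first and second cells also had the same leading heavy variable segment, which the other cells did not share. Ighv1-53 had 47 molecules in the first and 54 in the second, 94.0% and 94.7% of their heavy variable molecules. Iglv1 led the lambda variable genes in all 5 cells, with 54 and 78 molecules in the first and second and 4, 3 and 5 in the others. In the first and second cells Iglc1, Iglc2 and Iglc3 together came to at most 36 molecules. Igkv4-80 came second among the kappa variable genes in these 2 cells, with 7 and 21 molecules. Ighj3 and Igkj2 led their joining segments on 2 to 4 molecules each, and the third cell had 1 molecule of Igkj2. The third cell was led by Ighv1-72 (10 molecules), the fourth by Ighv1-26 (20 of its 32 heavy variable molecules, beside 11 of Ighv8-2) and the fifth by Ighv1-19 (36 molecules). Ighv1-53 molecules outside the 5 cells numbered 2. Of the 50-base stretches of Ighv1-53 57.6% occur in other genes, most often in Ighv1-69, so segment names among the Ighv1 family are uncertain.

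All 5 cells fell into macrophage-like clusters, 4 of them in the same one, when the clustering left immunoglobulin genes out. Their total molecules were 39189, 29825, 16474, 32612 and 25774, between the 90.9th and the 99.6th percentile of all kept cells. The other 197 macrophage-like cells of the same pool had a median of 8923. The macrophage markers C1qa, C1qb, C1qc, Adgre1, Mrc1, Cd68 and Apoe all had molecules in each of the 5 cells. Summed over these 7 markers, and leaving immunoglobulin molecules out of the total, the 5 cells stood at 13702, 9836, 17292, 22456 and 11819 CPM. The other macrophage-like cells of the pool had a median of 20882 CPM, and B-cell-like cells 1196 CPM. T cell markers came to 308 CPM in the 5 cells against 197 CPM in the other macrophage-like cells, and fibroblast markers to 1038 against 886 CPM. Whether a barcode held more than 1 cell was not tested.

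Genes of the plasma cell list, which the choice of the cells did not use, were higher in the 5 cells than in other macrophage-like cells. 14 of the 15 genes of the list with at least 20 molecules over both groups were higher by at least 1 on the log2 scale, and 0 were lower by that much. Derl3 and Eaf2 reached 20 molecules only through the 5 cells, so their place in this count was set by the filter, and the count is a description. The median log2 ratio of the list was 3.01, against 0.09 over all 8983 genes compared, of which 15.4% were higher and 16.6% lower by that much. Per cell, the list came to 8122, 12122, 8598, 3792 and 11723 CPM, and the 5th to 95th percentile of the other macrophage-like cells ran from 668 to 3224 CPM. The fourth cell was the lowest of the 5, and all 5 stood above that range. Xbp1, a transcription factor of antibody secretion, had 32, 52, 15, 13 and 24 molecules in the 5 cells. Its level was 1196 CPM against 140 CPM in the other macrophage-like cells, a log2 ratio of 3.10 (2.79 to 3.39). Derl3, which removes misfolded protein from the endoplasmic reticulum, had 7, 11, 1, 1 and 3 molecules in the 5 cells and 1 molecule in all 197 others.

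Ssr4, Sec11c, Txndc5, Creld2 and Hsp90b1, further genes of the secretory apparatus, had molecules in each of the 5 cells, and Fkbp11 had 5, 0, 1, 2 and 1. Ssr4, a subunit at the protein channel of the endoplasmic reticulum, was at 994 against 124 CPM, a log2 ratio of 3.01 (2.68 to 3.33). Sec11c, of the signal peptidase, was at 862 against 138 CPM, and Txndc5, a disulphide isomerase, at 580 against 31.6 CPM. Creld2 was at 431 against 40.5 CPM, and the chaperone Hsp90b1 at 2744 against 1006 CPM. The lineage regulators were sparser: Irf4 had 26 molecules in 4 of the cells, Prdm1 8 in 3 and Sdc1, the plasma cell surface marker CD138, 4 in 2. Tnfrsf17, the receptor BCMA, had 1 molecule. Slamf7, a surface receptor that macrophages also carry, was the exception to the list, at 176 against 230 CPM (log2 ratio -0.35, -1.11 to 0.26).

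**Figure D2:**
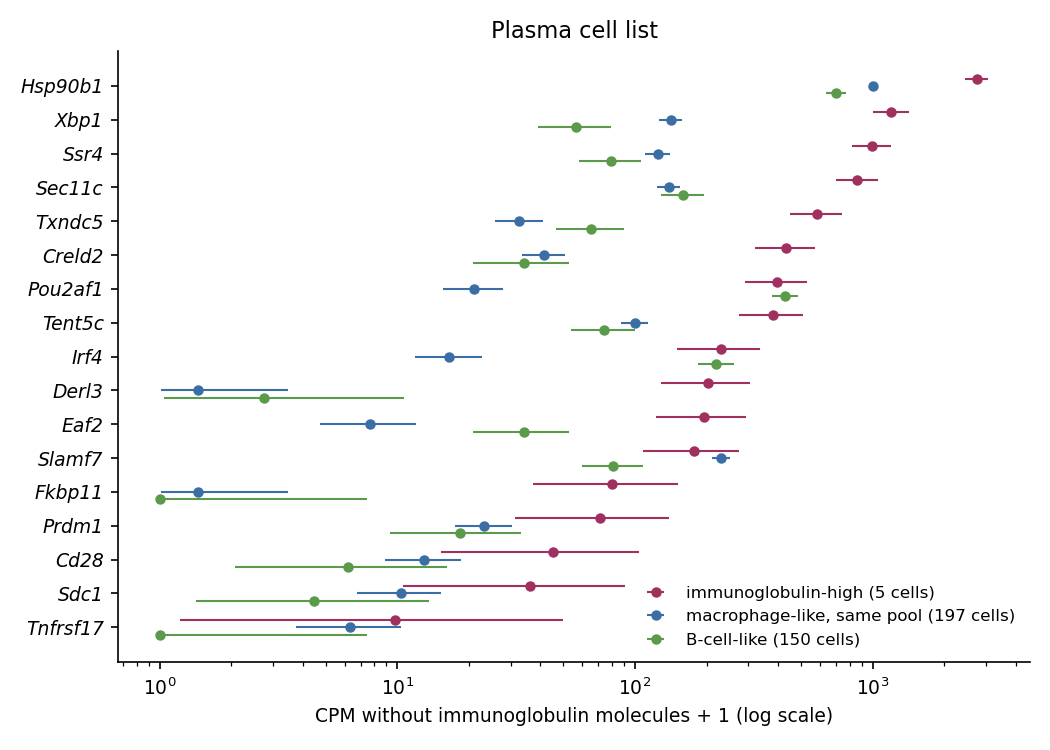
CPM of the 17 plasma cell list genes, plus 1, on a log axis, in the 5 immunoglobulin-high cells, in 197 other macrophage-like cells of the same pool and in 150 B-cell-like cells. Bars are 95% Poisson intervals of the summed molecules, with immunoglobulin molecules left out of the totals. Xbp1 stands at 1196 CPM in the immunoglobulin-high cells and at 140 and 55.7 CPM in the others.

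Against B-cell-like cells the same list and the B cell list went opposite ways. Of 12 plasma cell list genes with enough molecules, 10 were higher by at least 1 on the log2 scale and 0 lower, where 15.2% of 5502 genes were higher and 23.7% lower. Derl3, Creld2 and Eaf2 reached 20 molecules there only through the immunoglobulin-high cells. The exceptions were Irf4 (log2 ratio 0.08) and Pou2af1, a coactivator of immunoglobulin transcription (-0.10), both of which B cells also make. Of the 16 B cell list genes 15 were lower by at least 1, with a median log2 ratio of -2.81. Cd79a, a signalling chain of the B cell receptor, had 6, 30, 3, 5 and 8 molecules in the 5 cells. Its level was 457 CPM against 2939 CPM in B-cell-like cells and 114 CPM in other macrophage-like cells. The second cell carried 8 of the 8 Pax5 molecules and 8 of the 8 Cd22 molecules of the group. The antigen-presentation gene Cd74 was the exception, at 10255 against 15724 CPM (-0.62). Against the other macrophage-like cells 10 of 15 genes of the B cell list were higher by at least 1 and 0 lower, where 15.4% of all genes were higher and 16.6% lower. Several of these rest on the second cell, which also held 3 of the 3 Cr2 and 7 of the 8 Fcmr molecules.

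B-cell-like cells formed 1 cluster of 150 cells, 46 in the pool labelled wild-type and 104 in the pool labelled Saa3-/-, with 8 of 8 B cell markers found and Cd79a at 2775 and 2973 CPM. They were 5.52% (4.07 to 7.30%) and 12.6% (10.4 to 15.1%) of the kept cells. A cell was given a heavy-chain class when it had at least 3 heavy-chain constant molecules and over 50% of them were of that class. Of the 144 cells with enough molecules, 142 were IgM/IgD, or 98.6% (95.1 to 99.8%). By pool these were 43 of 44 and 99 of 100, and the remaining 6 cells had too few molecules. Ighm and Ighd were both found in 121 of the 150 cells, Ighm alone in 26, Ighd alone in 1 and neither in 2.

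The 2 B-cell-like cells outside IgM/IgD were 1 in each pool. The one in the pool labelled wild-type was classed as IgG2c: it had 5 Ighg2c and 2 Igha molecules, 29 of Igkc, and 0 of Ighm and Ighd. The one in the pool labelled Saa3-/- had no leading class, with 5 molecules of Ighg1, 3 of Ighg2c, 2 of Ighg2b and 1 of Ighm beside 62 of Igkc. Its 5 Ighg1 molecules are 5 of the 6 in the whole sample. Ighg3 molecules, 11 in the B-cell-like cells of the pool labelled wild-type and 1 in the other pool, lay mostly in 2 cells. The cell with most, 7, also had 78 Ighm, 0 Ighd and 11 Mzb1 molecules, and a cell with 3 had 70 Ighm molecules.

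**Figure D3:**
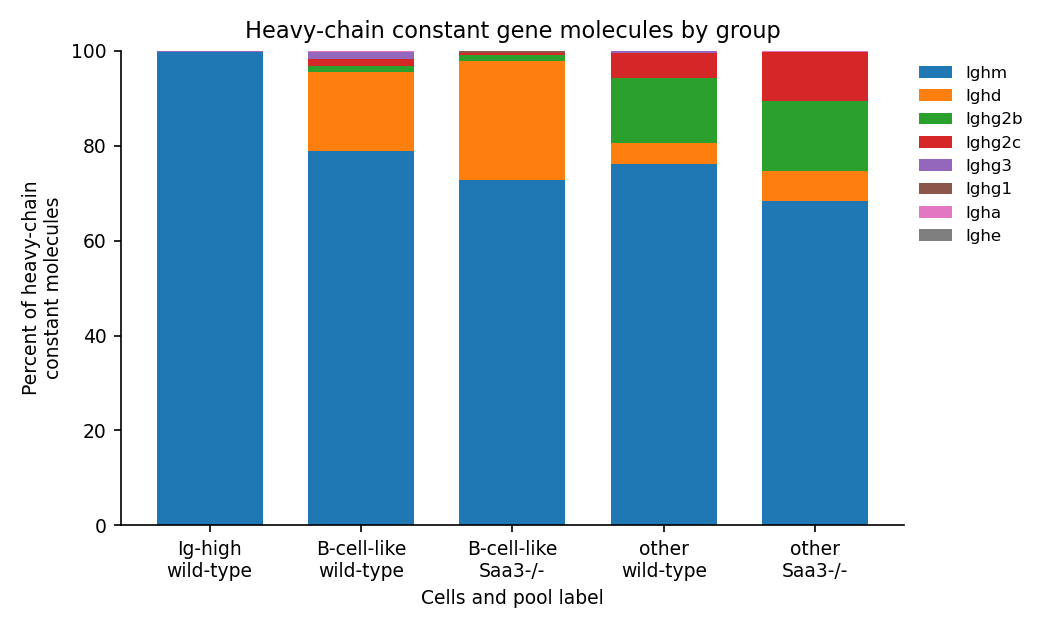
Share of heavy-chain constant molecules by gene in the immunoglobulin-high cells (Ig-high), the B-cell-like cells and all other cells, by pool label, as stacked bars that add up to 100%. Ighd makes up 16.7% and 25% in the B-cell-like cells of the pools labelled wild-type and Saa3-/-, and Ighg2b makes up 13.7% and 14.8% in other cells.

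Light chains of the B-cell-like cells were mostly kappa. By the more abundant constant gene, 139 of 150 cells were kappa and 11 lambda, 3 of 46 in the pool labelled wild-type and 8 of 104 in the pool labelled Saa3-/-. The lambda share of light-chain molecules was 19.4% (17.4 to 21.5%) in the first and 11.2% (10.0 to 12.4%) in the second. A single cell of the pool labelled wild-type gave 97 of its 141 Iglc1 and 53 of its 103 Iglc2 molecules. The log2 ratio of Iglc1 between the pools, -2.19 in B-cell-like cells, was -0.60 without that cell, and that of Iglc2 went from -0.39 to 0.57. No difference in lambda use is read from these sums.

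In B-cell-like cells Ighd was higher in the pool labelled Saa3-/-, by less than 1 on the log2 scale in the original cluster. Ighd was at 597 CPM (495 to 714) in the pool labelled wild-type and 1002 CPM in the pool labelled Saa3-/-, a log2 ratio of 0.74 (0.45 to 1.06). The median cell had 2 Ighd molecules in the first and 3 in the second, and the ranges, 0 to 10 and 0 to 20, overlapped. After each cell was thinned to 2000 molecules, 52.2% of 46 cells and 70.4% of 98 cells had an Ighd molecule. Without thinning these shares were 71.7% and 85.6%, and 6 cells of the second pool were too shallow to thin. The ratio depended on which cells counted as B cells: it was 1.38 with the 183 cells chosen at a finer clustering and 1.60 with the 256 cells chosen by their own markers. In those sets the macrophage gene C1qb was at 2092 and 2470 CPM in the pool labelled wild-type and at 877 and 1447 CPM in the other, against 249 and 231 CPM in the original cluster. The part of macrophage RNA in the larger ratios was not tested.

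Ighm was at 2819 and 2915 CPM (log2 ratio 0.05, -0.10 to 0.20) and Igkc at 5848 and 6711 CPM (0.20, 0.10 to 0.30), each value given first for the pool labelled wild-type. Mzb1 was at 264 and 168 CPM (-0.65, -1.20 to -0.09). The median cell had 0 Mzb1 molecules in each pool, and 1 cell held 11 of the 53 molecules of the pool labelled wild-type. After thinning, 32.6% (19.5 to 48.0%) and 23.5% (15.5 to 33.1%) of the cells had an Mzb1 molecule, and these intervals overlapped. Ighg2b had 9 and 19 molecules (0.12, -1.06 to 1.49). Over all alternatives tried, the ratio of Ighm reached 0.46 and that of Igkc 0.74, and that of Mzb1 ran from -0.75 to 0.19. Of the 10 genes, Ighm, Ighd, Igkc, Iglc2, Ighg2b and Mzb1 reached 20 molecules in B-cell-like cells, and 0 of these 6 differed by at least 1 on the log2 scale. Over all 4803 genes with 20 molecules 10.2% did, 5.54% higher and 4.68% lower, and the median log2 ratio was -0.00. Ighg2c, Ighg3, Igha and Jchain had too few molecules to compare.

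Some of what was counted in B-cell-like cells was no more than the rate in other cells. At the rate of the 1501 other cells, which were neither B-cell-like nor immunoglobulin-high, the B-cell-like cells of the 2 pools would hold 10.7 and 20.0 Ighg2b molecules, and they held 9 and 19. Jchain gave 2.66 and 4.23 molecules at that rate, and 1 and 7 were counted. Ighd was 35.1 and 43.8 times that rate, Mzb1 29.5 and 22.1 times, Ighm 9.47 and 12.0 times and Igkc 8.14 and 9.79 times. Iglc2 had 103 and 149 molecules where the rate gives 4.11 and 4.55. Of the 1501 other cells 110 held 2 or more of 5 B cell markers, and the rates and the levels by type include them. These 110 cells held 168 of the 229 Ighd, 145 of the 200 Iglc2 and 54 of the 99 Mzb1 molecules of other cells. They also held 1054 of the 3245 Ighm and 2261 of the 8316 Igkc molecules, but 100 of the 626 Ighg2b molecules. Ighg2b in B-cell-like cells was thus not above the level of other cells, and the Jchain counts, 1 and 7, have exact intervals that hold the number at that rate. Where these molecules came from was not tested.

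Immunoglobulin molecules were found in nearly every cell of the sample. A molecule of Igkc was present in 94.3% of the 1656 kept cells and one of Ighm in 69.1%. In other cells Igkc was at 718 CPM (699 to 739) in the pool labelled wild-type. It was at 686 CPM (663 to 709) in the pool labelled Saa3-/-, which holds no immunoglobulin-high cell. Both pools are parts of the same sample and are told apart by sample tag. After thinning to 2000 molecules, 71.2% of 764 and 71.7% of 699 other cells had an Igkc molecule, against 97.8% and 99.0% of B-cell-like cells. Unthinned, the shares in other cells were 93.9% and 93.6%. The median depth of other cells was 6586 and 5056 molecules. The median depth of B-cell-like cells was lower, at 3636 and 3191 molecules. Where the immunoglobulin molecules of other cells came from was not tested.

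Over the 7 other types of at least 50 cells, Igkc levels lay close together. It was lowest in smooth-muscle-like cells at 545 CPM (507 to 586) and highest in macrophage-like cells at 807 CPM (778 to 837). In order, thymocyte-like cells (570), fibroblast-like cells (666), T-cell-like cells (674), dendritic-cell-like cells (726) and monocyte-like cells (780) came between them. Neighbours in this order had overlapping intervals in each case. B-cell-like cells stood at 6413 CPM. Within types the pools were close: T-cell-like cells had 675 and 673 CPM and smooth-muscle-like cells 543 and 549 CPM in the pools labelled wild-type and Saa3-/-. Monocyte-like cells were further apart, with 721 CPM (659.8 to 786) in 62 cells and 971 CPM (846 to 1110) in 29.

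**Figure D4:**
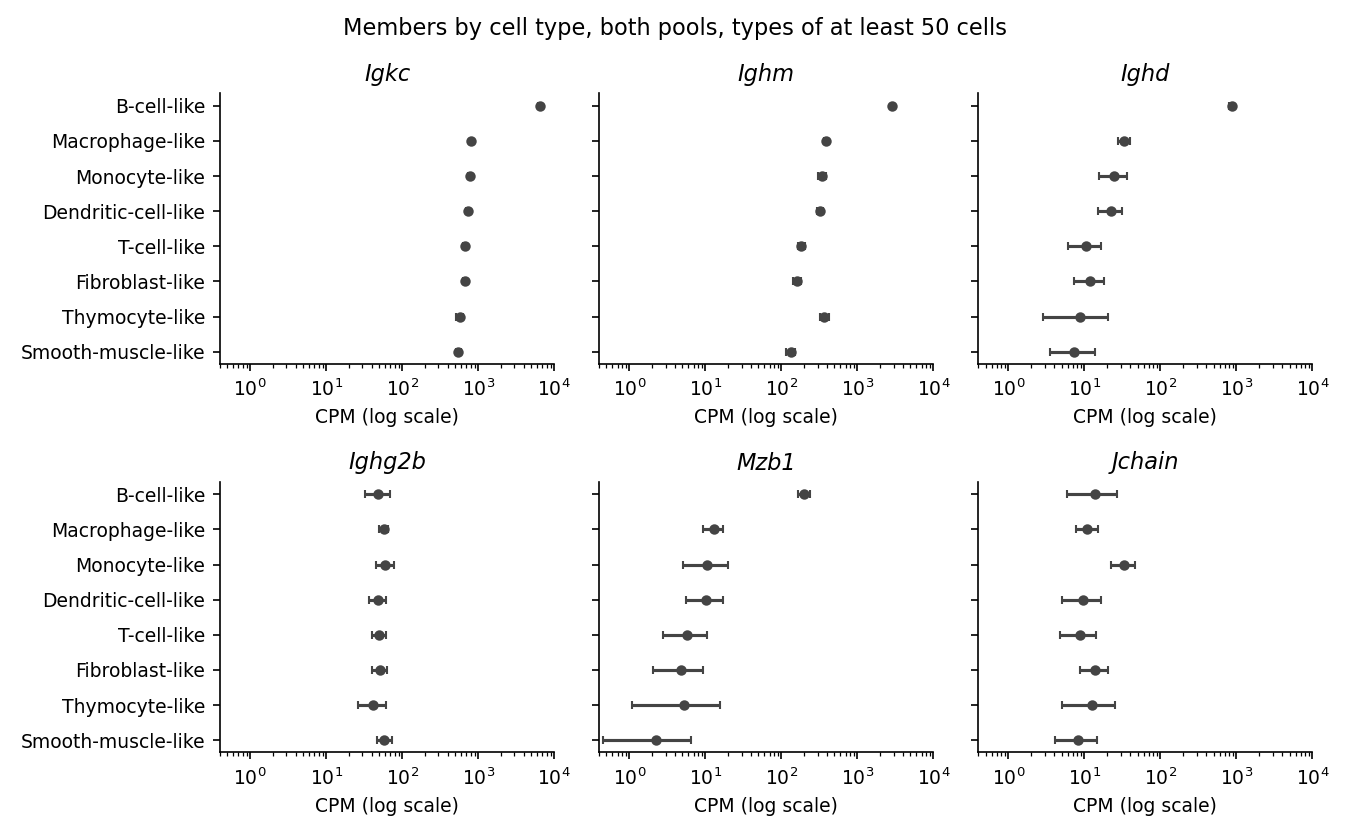
CPM of 6 of the genes in each cell type of at least 50 cells, both pools summed, on a common log axis, with 95% Poisson intervals as bars. Igkc spans 545 to 807 CPM outside B-cell-like cells, and Ighg2b stands between 40.8 and 59.8 CPM in every other type and at 48.1 CPM in B-cell-like cells.

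Ighm was spread less evenly than Igkc. It was at 132 CPM in smooth-muscle-like cells, 162 in fibroblast-like cells and 184 in T-cell-like cells. Dendritic-cell-like cells had 322 CPM, monocyte-like cells 345, thymocyte-like cells 367 and macrophage-like cells 385. The intervals of the first 3 types (113.7 to 205 CPM) lay below those of the last 4 (293 to 421 CPM). The number of Igkc molecules per Ighm molecule followed: 4.12 in smooth-muscle-like, 4.10 in fibroblast-like and 3.66 in T-cell-like cells, 2.10 to 2.26 in macrophage-like, monocyte-like and dendritic-cell-like cells, and 1.55 in thymocyte-like cells. The ratio was 2.22 in B-cell-like and 2.12 in immunoglobulin-high cells. By pool, macrophage-like cells were at 1.94 (labelled wild-type) and 2.46 (labelled Saa3-/-), and monocyte-like cells of the pool labelled wild-type at 1.96. A single monocyte-like cell of that pool held 94 of the 323 Ighm and 56 of the 731 Igkc molecules of its type. Levels of monocyte-like cells without it were not computed. Ighm of thymocyte-like cells was at 367 CPM in each pool. Molecule counts are not divided by transcript length, so ratios are compared between cells and not read as relative amounts of the 2 chains.

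Ighg2b had no cell or type in which it was high. Of its 658 molecules 95.1% were in other cells and 0.608% in immunoglobulin-high cells, and no cell had more than 8. Its level was 53.4 CPM (48.1 to 59.1) in other cells of the pool labelled wild-type and 52.6 CPM (46.3 to 59.4) in the other pool. Across the 7 types it ran from 40.8 CPM in thymocyte-like to 59.8 CPM in monocyte-like cells, and all 7 intervals overlapped. After thinning, between 8.41% and 11.0% of the cells of each type had a molecule. Ighg2c ran more widely, at 11.0 to 28.4 CPM in 6 of the 7 types and at 68.1 CPM in fibroblast-like cells, where 1 cell held 77 of the 115 molecules.

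That cell was a fibroblast-like cell of the pool labelled Saa3-/- with 77 Ighg2c and 445 Iglc1 molecules among 18431. It also had 346 molecules of Dcn, a matrix proteoglycan of fibroblasts, and 3 of Jchain, and 0 of Xbp1, Cd79a and Mzb1. It was singled out after its values were seen. With it, Ighg2c in other cells was at 20.6 CPM in the pool labelled wild-type and 36.3 CPM in the pool labelled Saa3-/-, a log2 ratio of 0.82 (0.49 to 1.15). Without it the second value was 20.5 CPM and the ratio -0.01 (-0.39 to 0.37). Iglc1 went from a log2 ratio of 1.58 to -1.23, and a monocyte-like cell had 127 of the 248 Iglc1 molecules of the pool labelled wild-type. That monocyte-like cell also had 94 Ighm, 56 Igkc, 9 Ighd and 20 Jchain molecules, the most Jchain outside the immunoglobulin-high cells.

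Compared over all other cells, 0 of the 8 members with enough molecules differed by 1 on the log2 scale between the pools, though Iglc2 was at -1.03 with a finer clustering and Ighg2c at 1.00 with B cells chosen by their own markers. The ratios of the pool labelled Saa3-/- to the pool labelled wild-type were -0.30 for Ighm, -0.07 for Igkc and 0.43 for Ighd. They were -0.77 for Iglc2, -0.02 for Ighg2b, -0.25 for Jchain and -0.22 for Mzb1, with Ighg2c as above. Without the 110 other cells that held 2 or more B cell markers, Ighm was at -0.12 (-0.24 to 0.01) and Ighd at -0.35 (-1.19 to 0.43). Over the alternatives tried the direction turned for Ighd (-0.35 to 0.47), Iglc2 (-1.03 to 0.26), Jchain (-0.32 to 0.32), Mzb1 (-0.26 to 0.40) and Ighg2c (-0.01 to 1.00). It also turned for Igkc (-0.11 to 0.01) and Ighg2b (-0.05 to 0.08). Ighm kept its direction (-0.36 to -0.06). Of all 13977 genes compared 3.88% passed that limit, 2.68% higher and 1.21% lower, and the median was 0.07. Iglc2 was unevenly spread: a macrophage-like cell of the pool labelled wild-type had 55 of the 142 Iglc2 molecules. Igha (3 and 3 molecules) and Ighg3 (9 and 1) were too low to compare.

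Summed over all kept cells, the pools differed widely. For Ighm, Igkc and Jchain most of the difference lay in the 5 immunoglobulin-high cells. Ighm was at 1633 CPM in the pool labelled wild-type and 437 CPM in the pool labelled Saa3-/-, a log2 ratio of -1.90 (-1.97 to -1.84). Igkc was at 3543 and 1124 CPM (-1.66), Jchain at 120.0 and 11.7 CPM (-3.35) and Ighg3 at 42 against 2 molecules (-3.61, -7.01 to -1.97). Of the 42 Ighg3 molecules, 22 were in 1 of the 5 cells. B-cell-like cells held 11 Ighg3 molecules against 1 in the other pool, and other cells 9 against 1. Without the 5 cells Ighm was at 369 and 437 CPM and Igkc at 863 and 1124 CPM, so the pool labelled Saa3-/- was then the higher one. Ighd went the other way, at 32.9 and 94.0 CPM (1.51, 1.29 to 1.74). B-cell-like cells held 120 of its 240 molecules in the first pool and 381 of its 492 in the second. Mzb1 was at 37.5 and 19.3 CPM (-0.95), and Ighg2b was level, at 52.7 and 52.4 CPM (-0.01). Of the 9 genes with 20 molecules, 4 were lower and 1 higher by at least 1, where 1.50% of 14102 genes were lower and 2.72% higher, 4.21% in all. In such sums the number of cells of a type and the RNA of each cell cannot be told apart.

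**Figure D5:**
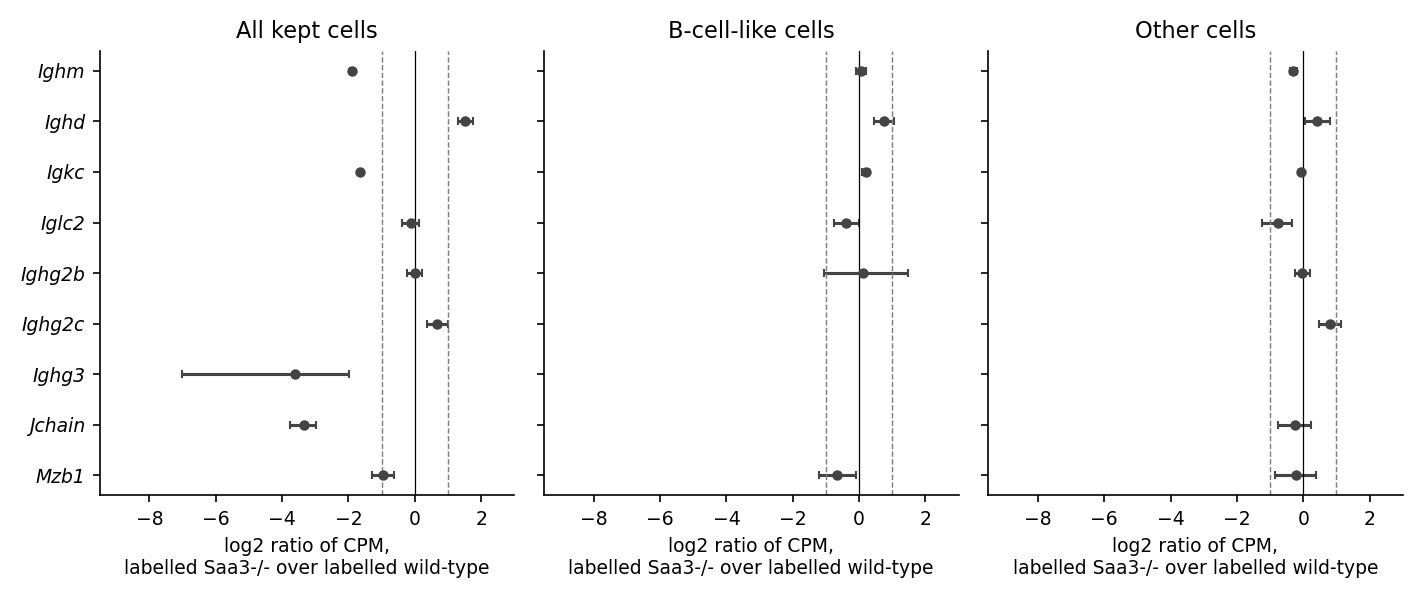
log2 ratio of CPM, pool labelled Saa3-/- over pool labelled wild-type, for each gene with at least 20 molecules, in all kept cells, B-cell-like cells and other cells. Bars are exact 95% counting intervals and dashed lines mark a ratio of 1 in size. Ighm stands at -1.90 over all kept cells and at 0.05 and -0.30 in B-cell-like and other cells.

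Receptors that bind immunoglobulin were compared in the same 5 cells. Of the 6 genes of that list with enough molecules, 3 were lower than in other macrophage-like cells by at least 1 and 0 higher (background shares above). Fcgr3 was at 290.2 against 647 CPM, Fcgr2b, the inhibitory IgG receptor, at 264 against 685 CPM and Fcgr1 at 44.0 against 134 CPM. Fcgrt, which protects IgG from breakdown, was at 185 against 257 CPM (log2 ratio -0.44). Pigr and Fcamr, which carry or bind polymeric IgM, had 0 molecules in the 5 cells. The other macrophage-like cells of the pool had 1 and 0, so these zeros do not set the 5 cells apart. In the list of class switching and germinal centre genes, S1pr2 and Mef2b were higher by at least 1 among 5 compared, with 8 and 9 molecules. The second cell held 6 of the 9 Mef2b molecules. In the B-1 list, named for the innate-like B cells that make natural IgM, Bhlhe41 was higher (6 molecules, log2 ratio 1.86, 0.22 to 3.03) and Cd9 lower among 4 compared. Over all 8983 genes 15.4% were higher and 16.6% lower. The median log2 ratios of these lists were 0.23 and -0.43, against 0.09 over all genes, and no trait of the 5 cells is read from the counts.

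Across the 15 cell types and groups of this sample, the genes whose levels went most closely with Ighd were Fcer2a (Pearson r 0.96 on log2 CPM), Tnfrsf13c (0.95), Fcmr (0.94), Cxcr5 (0.93) and Trim7 (0.93). Fcer2a encodes CD23, Tnfrsf13c the receptor for BAFF and Cxcr5 a receptor for homing to follicles. For Jchain they were Asns (0.92), Pycr1 (0.84), Lins1 (0.84), Ssr4 (0.82) and Dusp14 (0.82). These are descriptions over types of 5 to 379 cells that share the same libraries, chosen among 11967 genes. Each r rests largely on 1 group. Jchain was at 5435 CPM in the immunoglobulin-high cells, which were chosen by immunoglobulin sums, and at most at 33.1 CPM in any other type. Ighd was at 862 CPM in B-cell-like cells and at most at 33.5 CPM in any other type. Many of these genes are sparse, with 55 molecules in all for Pycr1.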

How the data were processed

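Per the file headers, the authors counted molecules per gene and cell (counts, not normalized) with the BD Rhapsody WTA Analysis Pipeline 1.11.1 on GRCm38 with GENCODE M19, including intronic reads. The submitters' processing notes also name R 4.3.1 and Seurat 4.3.0. Which tag belongs to which genotype comes from the names of the deposited tables. Of 2401 putative cells, 11 were called multiplets and 647 undetermined by tag, and these are not in the count tables. No doublet caller was run here.

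Cells with at most 25% mt- molecules were kept. Clustering left out immunoglobulin genes, Jchain, Mzb1 and Saa3. Counts were scaled to 10000 per cell and log-transformed, and 2000 variable genes, 30 components, 15 neighbours and a Leiden resolution of 1 gave clusters (scanpy 1.11.5, leidenalg 0.10.2, Python 3.11.15). A cluster took the type with the highest marker score if at least 3 markers were found in 25% of its cells. Ratios are log2 ratios of CPM with a pseudocount of 0.5 molecule for genes with at least 20 molecules, and a difference counted from 1 in size. Levels of the gene lists leave immunoglobulin molecules out of the total. No test was made, since each label has 1 pool. The ratio and thinning functions were checked on simulated data. Sequences and positions come from GENCODE M21 (GRCm38).

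The 10 genes, the lists, the markers and the alternatives were chosen with earlier results of these data known. Named genes are the 10, related constant genes, fixed lists, the leading variable genes of each immunoglobulin-high cell, and the 5 genes with the highest Pearson r with Ighd and with Jchain on log2(CPM + 10). Single cells were chosen after their values were seen. Some items are not reported here.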

Additional observations from a re-analysis of the deposited data

How the results depend on the processing

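No paired analysis was possible because the results come from no test and each genotype label has 1 pool. The share of IgM/IgD among B-cell-like cells with enough molecules stayed between 96.1% and 99.0% under 9 alternatives, and the 5 immunoglobulin-high cells were the same 5 under 5 alternatives. The changed molecule limits could only give the same 5, since no kept cell held between 195 and 4810 constant-gene molecules. The limit set on the share of molecules lay in a gap too. The lowest share among the 5 was 16.7%, against 0.429% in the cell with the next highest sum. A B-cell-like cell, also among those with the next highest sums, had 1.79%. The share of other cells with an Igkc molecule, 71.4% at 2000 molecules per cell, was 47.4% at 1000 and 89.6% at 4000, as thinning sets it, and it stayed within its interval under the 7 other alternatives. The log2 ratio of Ighd in B-cell-like cells, 0.74, was 1.38 at a Leiden resolution of 2 and 1.60 with B cells chosen by 2 of 5 markers, and it stayed within its interval under 10 others. Those 10 include the lower limit for immunoglobulin-high cells and the requirement of 100 molecules, neither of which could change the Ighd ratio. For single genes and shares, 191 of 233 values stayed within the interval of the reported value and 41 moved outside it. The 191 include values that could not change. Requiring 100 molecules leaves the ratio of a gene that has them as it was, and the lower limit for immunoglobulin-high cells selected the same cells. How many of the 191 were free to change was not counted, so 191 is not a measure of robustness. The Iglc1 log2 ratio of 1.58 in other cells reversed to -1.23 without the cell with the most Iglc1, an alternative chosen after seeing the data. The share of all genes past the limit in B-cell-like cells, 10.2%, was 5.14% with a pseudocount of 5 and 2.04% with 100 molecules required, and that in other cells, 3.88%, was 1.39% with 100 molecules required. Leaving out a replicate was not possible with 1 pool per label. Depth limits Igha, Ighg1, Ighe and, in B-cell-like cells, Ighg2c, Ighg3 and Jchain, which had under 20 molecules.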
